A study of Mus musculus with 14 samples.

Results

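The 9 genes of nitrogen disposal in the liver described here were followed across dwarfism and age: the urea cycle enzymes Cps1, Otc, Ass1, Asl and Arg1, the ammonia scavenger Glul, and Tat, Hal and Hpd, which start or continue the breakdown of tyrosine and histidine. Members were found by gene symbol in the annotation of the array, which gave 11 probe sets for 9 of 9 genes, among 12488 probe sets and 8252 genes with 1 symbol. All 11 probe sets passed the filter on low signal. Asl and Glul each had a pair of probe sets, and the other 7 genes had 1.

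The livers came from 3 Snell dwarf mice of 22 months, 3 wild type mice of 22 months, 4 Snell dwarf mice of 6 months and 4 wild type mice of 6 months, with 1 mouse per Affymetrix array. Snell dwarfs carry a mutation of Pit-1, the transcription factor of the pituitary that is needed for the cells making growth hormone, prolactin and thyrotropin, and the labels describe these mice as long lived. The wild type mice served as controls for the mutation. Sex, genetic background, feeding state and processing batch are not given in the labels used here, and the animal numbers are the only names of the mice.

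Amino acids that are not used for protein are stripped of their nitrogen in the liver, and the ammonia released is toxic. Hepatocytes around the portal vein fix most of it as carbamoyl phosphate and turn it into urea through a cycle of enzymes shared between mitochondria and cytosol. A narrow rim of cells around the central vein catches what escapes by making glutamine. Genes of both the cycle and of amino acid breakdown are known to respond to glucagon, glucocorticoids, insulin and dietary protein, and growth hormone is known to restrain hepatic urea synthesis.

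Hal was the member that passed with age in both genotypes, and the 250 bases before its start are shown as its regulatory context. They lie on the plus strand at chr10:93488518-93488767 of GRCm38.p6 and are taken from RefSeq.
Hal: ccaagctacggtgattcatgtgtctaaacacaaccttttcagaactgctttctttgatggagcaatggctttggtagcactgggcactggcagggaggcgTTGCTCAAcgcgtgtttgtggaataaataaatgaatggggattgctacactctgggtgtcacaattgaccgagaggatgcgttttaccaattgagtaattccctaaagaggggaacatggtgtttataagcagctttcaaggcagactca
The capitals mark a match to letters bound by C/EBP factors, 150 to 143 bases before the start. It fits both TTGCNNAA, held by 9.56% of 32851 promoter windows of that length, and the narrower TTGCNCAA, held by 2.61%, and the pair overlap completely. The other letters searched on both strands were TTCNNNGAA (STAT5, in 7.02% of windows), TGACGTCA (CREB, 1.55%) and the shorter TGACG within it (17.8%), TGTTCT (the glucocorticoid receptor, 16.1%) and TGTTTAC (forkhead factors, 3.17%). Windows were available for 6 of the 9 genes, Glul, Ass1, Hpd, Tat, Hal and Otc, and only that of Hal held any of these letters. A match is a string of letters and not a measured binding site.

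Every value below is a MAS5 signal, a linear brightness per probe set, and probe sets of different genes are not compared in level. Differences are on the log2 scale with their standard error (SE), from 1 limma fit over all 14 arrays, and a gene passed at a Benjamini-Hochberg adjusted p under 0.05 over the 7227 probe sets tested. Median signal ran from 166.8 to 187.1 in dwarf mice of 22 months, 170.6 to 186.3 in wild type mice of 22 months, 186.8 to 221.1 in 6-month dwarf mice and 174.8 to 183.2 in wild type mice of 6 months. The beta-actin control, whose ratio of 3' to 5' signal reports on RNA integrity and labelling, separated the ages for most arrays. That ratio was 1.251 to 1.572 in dwarf mice of 22 months, 1.518 to 1.741 in wild type mice of 22 months, 2.288 to 2.692 in 6-month dwarf mice and 1.164 to 2.383 in wild type mice of 6 months. The same ratio of the Gapdh control was 0.8208 to 0.9683, 0.957 to 1.122, 1.311 to 1.773 and 0.8114 to 1.758 in these groups, in that order. The 3' to 5' covariate used below was the mean of the log2 ratios of both controls. On the arrays of 22 months the 18S control was at 339.8 to 4852.8, the highest being wild type animal 2 and the next highest 1048.6. It was at 217.4 or less on 7 of 8 arrays of 6 months. The exception was wild type animal 88 of 6 months, with an 18S signal of 587.6 and the lowest beta-actin ratio of the 14 arrays, so that this array resembled those of 22 months in these controls. Calls of named genes at 6 months between genotypes, and with age in wild type mice, are also given without it. The markers of hepatocytes were bright on every array, and Krt19, Krt7 and Epcam of the bile duct list were at or below the floor of 54.9 on all 14.

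At 6 months, 1 of the 9 genes passed between dwarf and wild type liver: Cps1 was higher in dwarfs. Among all 5473 genes counted, 13.4% passed in that comparison, so a single member is near the background. At 22 months none of the 9 passed, with 2.87% of all genes passing. None had an unadjusted limma p under 0.05, against 6.1% of all genes higher and 6.82% lower. Averaged over ages, Cps1 again was the 1 member that passed, against 10.4% of genes (4.66% higher and 5.7% lower). With age in dwarf liver Arg1 rose and Tat and Hal fell, 3 of 9 genes against 16.4% of all genes. That count was 1 to 3 with 1 array left out, and 0 with either control measure as a covariate. With age in wild type liver Hal alone fell, 1 of 9 against 2.48%. Whether these small counts exceed the share of all genes was not tested. No member passed the interaction of genotype and age, which 2.34% of genes passed. Arg1 alone had an unadjusted limma p under 0.05, against 6.87% of all genes higher and 7.51% lower, so a single member is near the background.

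The direction of the members as a group was uneven between these comparisons. The median log2 difference of the 9 genes was 0.15 at 6 months (0.09 over all genes) and 0.21 at 22 months (0.00 over all genes) between dwarf and wild type. Between 22 and 6 months it was -0.39 in dwarf mice (-0.08 over all genes) and -0.32 in wild type mice (-0.02 over all genes). Between genotypes 7 of 9 were positive at 6 months and 7 of 9 at 22 months (58.3% and 50.5% of all genes). Asl and Glul were each counted by the brighter probe set on average, which for Glul was designed under relaxed selection rules. Counted by the most variable probe set, 6 were positive at 6 months and 5 at 22 months, with medians of 0.17 and 0.19. In wild type liver 0 of 9 log2 differences were positive, and in dwarf liver 1 of 9, that of Arg1, whereas 48.1% and 43.9% of all genes were positive. With each array set to the same median signal, which moved the median of all probe sets in the dwarf age comparison from -0.09 to 0.116, the members' median in dwarfs was -0.19 and 2 of 9, Arg1 and Otc, were positive. After quantile normalization Cps1 was also positive in wild type mice. With the 18S signal as a covariate 3 of 9 were positive in dwarf and 3 of 9 in wild type mice, and with the 3' to 5' ratio 2 of 9 in dwarf and 0 of 9 in wild type mice. Without wild type animal 2 of 22 months, the array of the highest 18S signal, 3 of 9 were positive in wild type mice (Ass1, Cps1 and Hpd). Without wild type animal 82 it was 1 of 9 (Ass1), and without dwarf animal 8 it was 2 of 9 in dwarfs (Arg1 and Hpd). Leaving out any other array changed neither count. The comparisons of dwarf with wild type at 6 months and of age within dwarfs share the 4 arrays of dwarf mice of 6 months.

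**Figure D1:**
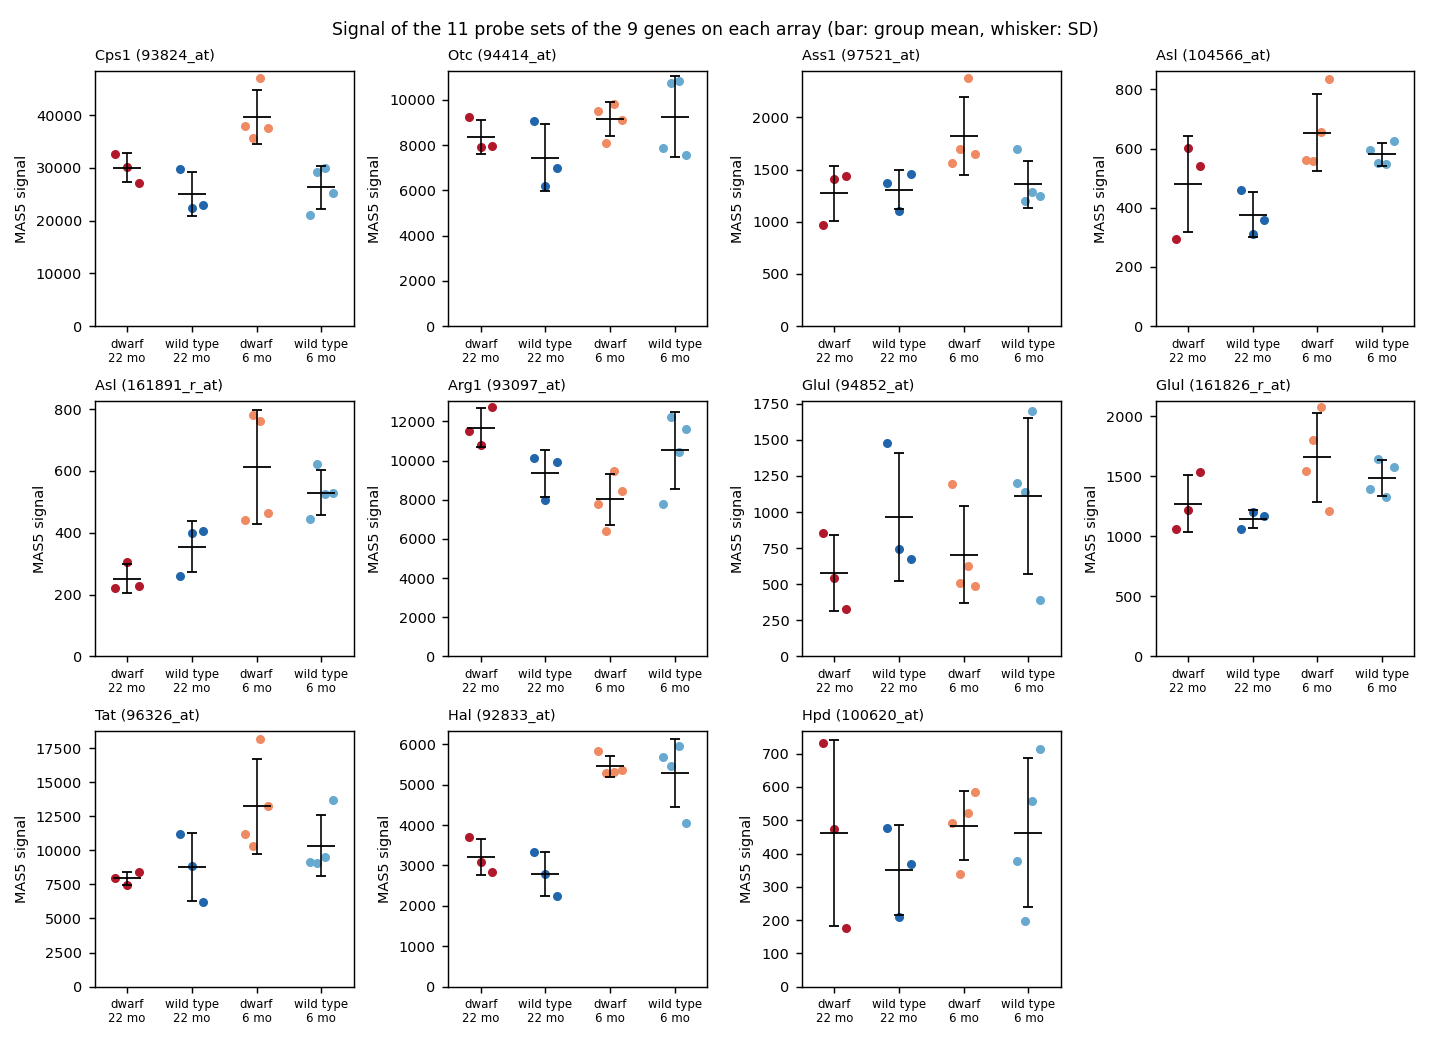
MAS5 signal of each of the 11 probe sets (linear axes from 0) on the 14 arrays, 1 point per mouse, with the mean of each group as a bar and its SD as whiskers. Hal sits lower in both groups of 22 months, and the 4 dwarf mice of 6 months stand above the 4 wild type mice of 6 months for Cps1.

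Cps1, carbamoyl phosphate synthetase, commits ammonia to the urea cycle in the mitochondrion and is its rate-limiting step. Its signal in dwarf mice of 6 months was 37875, 35708, 47113 and 37521, against 21071, 29133, 29943 and 25258 in wild type mice of 6 months. The groups did not overlap, with means of 39554 ± 5128 in dwarf and 26351 ± 4071 in wild type mice (SD, n = 4 each). The log2 difference was 0.59 ± 0.14 (SE), a 1.51-fold higher signal in dwarfs, with a limma adjusted p of 0.0122. It remained past the threshold when any 1 of the 14 arrays was left out, at 0.49 to 0.66, and was 0.58 without animal 88 (adjusted p = 0.0274).

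At 22 months Cps1 was at 32674, 30088 and 27208 in dwarf mice and at 29857, 22375 and 23001 in wild type mice. These groups overlapped, and the difference of 0.27 ± 0.17 had a limma adjusted p of 0.578. Averaged over ages it was 0.43 ± 0.11 (adjusted p = 0.0183), and that call was lost without dwarf animal 3 (adjusted p = 0.056), wild type animal 2 (0.0542) or wild type animal 24 (0.052). Within dwarf mice the 3 animals of 22 months lay below the 4 of 6 months, yet the log2 difference of -0.39 ± 0.15 did not pass (adjusted p = 0.0911).

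Other probe sets of high signal were read beside Cps1. Of the 31 genes with a mean signal over 20000, Cps1 included, 25 had a positive log2 difference between dwarf and wild type at 6 months, the median was 0.35, and 10 passed as higher and 4 as lower. Of the 117 genes with a mean signal over 10000, 72 were positive, the median was 0.15, and 28 passed as higher and 21 as lower. Over all genes 58.3% were positive, the median was 0.09, and 6.3% passed as higher and 7.09% as lower. Of 8 hepatocyte markers listed, 5 were on the array, 2 passed as higher at 6 months and none as lower in the limma fit. At an unadjusted p under 0.05 these counts were 3 and 1, against 16.19% and 13.05% of all genes. Alb, the main secreted protein of hepatocytes, was 0.44 ± 0.13 higher (limma adjusted p = 0.0338) and Apoa1, the main protein of high-density lipoprotein, 0.47 ± 0.14 higher (adjusted p = 0.0358). Apoh was at 0.41, Apob at 0.01 and Ttr at -0.39, none of which passed. Without animal 88 Alb was at 0.47 (adjusted p = 0.0431) and Apoa1 at 0.49 (0.0489). The summed signal of the 5 markers, most of it from Alb and Apoa1, ran from 128209 to 175429 in dwarf mice and from 103028 to 124844 in wild type mice of 6 months. Of 7 endothelial markers listed, 6 on the array had summed signals of 2047 to 2648 in dwarfs and 1310 to 1615 in wild type mice of that age. The part of these differences in that of Cps1 was not tested. When every array was set to the same median signal, which moved the median of all probe sets between dwarf and wild type at 6 months from 0.099 to -0.10, Cps1 was 0.39 higher and no longer passed (limma adjusted p = 0.0981). In whole liver, fewer cells of a type and less RNA per cell cannot be told apart, here or below.

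Otc, ornithine transcarbamylase, joins carbamoyl phosphate to ornithine to make citrulline. It ran at 9240, 7905 and 7965 in dwarf mice of 22 months, 9079, 6211 and 7001 in wild type mice of 22 months, 9525, 8091, 9833 and 9118 in 6-month dwarf mice and 7867, 10732, 10850 and 7576 in wild type mice of 6 months. All groups overlapped their counterparts. At 6 months the log2 difference between dwarf and wild type was 0.00 ± 0.15, and its largest difference, -0.32 ± 0.16 with age in wild type mice, did not pass (limma adjusted p = 0.331).

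Ass1, argininosuccinate synthase, condenses citrulline with aspartate and brings the other nitrogen atom of urea into the cycle. In dwarf mice its signal was 968, 1409 and 1442 at 22 months, against 1567, 1695, 2377 and 1651 at 6 months, so that the older dwarfs lay below all the younger ones. The log2 difference of -0.52 ± 0.19 had a limma adjusted p of 0.0724. Wild type mice had 1367, 1100 and 1453 at 22 months and 1696, 1196, 1287 and 1250 at 6 months, with overlap and a difference of -0.05 ± 0.19. Dwarf over wild type at 6 months was 0.42 ± 0.18 (adjusted p = 0.129), and at 22 months -0.05 ± 0.20. No Ass1 comparison passed.

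Asl, argininosuccinate lyase, splits argininosuccinate into arginine and fumarate. Its brighter probe set on average had 295, 603 and 540 in dwarf mice of 22 months, 459, 312 and 358 in wild type mice of 22 months, 561, 560, 656 and 837 in 6-month dwarf mice, and 594, 552, 548 and 627 in wild type mice of 6 months. The wild type mice of 22 months all lay below those of 6 months, and the difference of -0.64 ± 0.23 did not pass (limma adjusted p = 0.163). In dwarfs the ages overlapped at -0.49 ± 0.23 (adjusted p = 0.154).

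The other Asl probe set, which the manufacturer designed under relaxed selection rules, had 221, 305 and 228 in dwarf mice of 22 months against 442, 782, 763 and 465 in those of 6 months. The groups were apart, and the signal was 2.38-fold lower at 22 months (log2 difference -1.25 ± 0.24, limma adjusted p = 0.00445). With the 18S signal as a covariate the adjusted p was 0.0591, and with the 3' to 5' ratio 0.0876. Wild type mice had 261, 398 and 406 at 22 months and 443, 622, 524 and 527 at 6 months on this probe set, also apart, with -0.60 ± 0.24 (adjusted p = 0.212). Asl was counted by its brighter probe set, so this call is not among the 9 genes counted above. In the values as deposited, both Asl probe sets gave negative age differences in both genotypes, of which 1 of 4 passed. For dwarf over wild type they had the same sign at 6 months (0.15 and 0.17) and opposite signs at 22 months (0.30 and -0.49), with none of these passing. This was the 1 probe set of the 11 whose group means spanned a log2 range of at least 1, at 1.25. Over the 14 arrays the genes closest to its centred log2 signal were Bad, a promoter of cell death, and Ldb2, a LIM-domain binding cofactor, with root mean square differences of 0.216 and 0.228.

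Arg1, arginase, releases urea from arginine and returns ornithine to the cycle. In dwarf mice the signal was 11517, 10772 and 12733 at 22 months, against 7758, 6409, 9486 and 8428 at 6 months. The ages did not overlap in dwarfs, with means of 11674 ± 990.0 (SD, n = 3) at 22 months and 8020 ± 1289 (n = 4) at 6 months. Arg1 rose 1.47-fold (log2 difference 0.55 ± 0.17, limma adjusted p = 0.037). That call was lost in 6 of the 14 fits that left out 1 array: without dwarf animals 3, 4 and 8 of 22 months the adjusted p was 0.097, 0.0662 and 0.117, and without dwarf animals 83, 85 and 89 of 6 months it was 0.0515, 0.0917 and 0.0544. With the 18S signal or the 3' to 5' ratio as a covariate the difference was 0.51 and 0.56, and the adjusted p was 0.216 and 0.249.

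In wild type mice Arg1 was at 10124, 7982 and 9949 at 22 months and at 7793, 12216, 10440 and 11621 at 6 months, where the ages overlapped (-0.16 ± 0.17, limma adjusted p = 0.678). At 22 months the 3 dwarfs lay above the 3 wild type mice by 0.32 ± 0.18 (adjusted p = 0.51), and at 6 months the difference between dwarf and wild type was -0.38 ± 0.16 (adjusted p = 0.116). Without wild type animal 82 the difference at 6 months was -0.52 with an adjusted p of 0.0348, and with arrays set to the same median signal it was -0.58 (adjusted p = 0.0191). The interaction of genotype and age was 0.71 ± 0.24, with an unadjusted limma p of 0.00916 and an adjusted p of 0.16.

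Glul, glutamine synthetase, makes glutamine from glutamate and ammonia in the hepatocytes next to the central vein. Its regular probe set varied widely within groups, with 852, 544 and 331 in dwarf mice of 22 months, 1479, 741 and 676 in wild type mice of 22 months, 1196, 509, 628 and 486 in 6-month dwarf mice and 1203, 1142, 1701 and 392 in wild type mice of 6 months. The lowest wild type value of 6 months was that of animal 88. Dwarf over wild type was -0.76 ± 0.49 at 22 months, -0.58 ± 0.42 at 6 months and -0.67 ± 0.32 averaged over ages (limma adjusted p = 0.226). Without animal 88 the average was -0.89, with an adjusted p of 0.0449, and with the 3' to 5' ratio as a covariate it was -0.82 (adjusted p = 0.024).

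The Glul probe set of relaxed design gave the opposite sign. It had 1063, 1216 and 1534 in dwarf mice of 22 months, 1058, 1199 and 1171 in wild type mice of 22 months, 1538, 1798, 2074 and 1211 in 6-month dwarf mice and 1396, 1645, 1326 and 1572 in wild type mice of 6 months. Dwarf over wild type was 0.14 at 22 months and 0.13 at 6 months, and age gave -0.37 in both genotypes (limma adjusted p = 0.163 in dwarfs and 0.291 in wild type mice). No direction is therefore given for Glul between the genotypes.

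Tat, tyrosine aminotransferase, takes the amino group from tyrosine and is a classic glucocorticoid-induced gene of liver. Dwarf mice had 7972, 7481 and 8416 at 22 months against 11197, 10342, 18169 and 13236 at 6 months. The ages were apart, with means of 7956 ± 467 (SD, n = 3) at 22 months and 13236 ± 3505 (n = 4) at 6 months. Tat fell 1.63-fold with age in dwarfs (log2 difference -0.70 ± 0.22, limma adjusted p = 0.0388). The call was lost without dwarf animals 3, 4, 8, 87 or 89 (adjusted p of 0.102, 0.113, 0.0732, 0.106 and 0.0731), with median scaling (-0.50, adjusted p = 0.137), with the 18S covariate (-0.79, 0.141) and with the 3' to 5' covariate (-1.03, 0.114). Without animal 88 of the wild type it was -0.70, with an adjusted p of 0.0252.

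Wild type mice had Tat signals of 11204, 8879 and 6211 at 22 months and 9115, 9047, 9507 and 13704 at 6 months, the highest being animal 88. These overlapped, and the age difference of -0.26 ± 0.22 did not pass (limma adjusted p = 0.581). Dwarf over wild type was 0.34 ± 0.20 at 6 months (adjusted p = 0.272) and -0.10 ± 0.23 at 22 months (0.962). Whether age moved Tat differently in the genotypes was not shown, since the interaction did not pass.

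Hal, histidine ammonia-lyase, removes ammonia from histidine to give urocanate, and its promoter is the sequence above. In dwarf mice its signal was 3699, 3075 and 2851 at 22 months, against 5846, 5299.7, 5327 and 5359.7 at 6 months. The means were 3208 ± 439 (SD, n = 3) at 22 months and 5458 ± 260 (n = 4) at 6 months, with a gap between the groups. Hal fell 1.71-fold with age in dwarf liver (log2 difference -0.77 ± 0.16, limma adjusted p = 0.00637).

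Wild type mice had Hal signals of 3335, 2794 and 2252 at 22 months against 5699.9, 5459, 5952 and 4063 at 6 months. Again no older mouse reached a younger one, and the lowest of the younger mice was animal 88. Hal fell 1.90-fold in wild type liver (-0.93 ± 0.16, limma adjusted p = 0.00917), and by 1.05 on the log2 scale without animal 88 (adjusted p = 0.00148). Age calls in both genotypes held in 14 of 14 fits with 1 array left out. The interaction was 0.15 ± 0.23 (adjusted p = 0.818), and dwarf over wild type was 0.21 ± 0.17 at 22 months and 0.06 ± 0.15 at 6 months, neither of which passed.

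The RNA measures of the arrays are set beside the Hal signal here. Animal 88, with RNA measures like those of the older mice, had the lowest Hal of the 8 young mice, at 4063. The 6 older mice ran from 2252 to 3699. Wild type animal 82 of 6 months had a Hal signal of 5699.9, among those of the other young mice. Its beta-actin ratio of 1.564 was inside the range of the older mice. Its Gapdh ratio of 1.309 was above their range of 0.8208 to 1.122, and its 18S signal of 74.5 was below theirs. With the 18S signal as a covariate the age difference was -0.60 in dwarfs (limma adjusted p = 0.117) and -0.73 in wild type mice (0.193). With the 3' to 5' ratio as a covariate it was -0.39 in dwarfs (adjusted p = 0.289), while the wild type call was kept. Both control measures largely followed age on these arrays, and no batch is named in the labels that could be set as a block. The part of the RNA measures in the Hal difference was not tested.

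**Figure D2:**
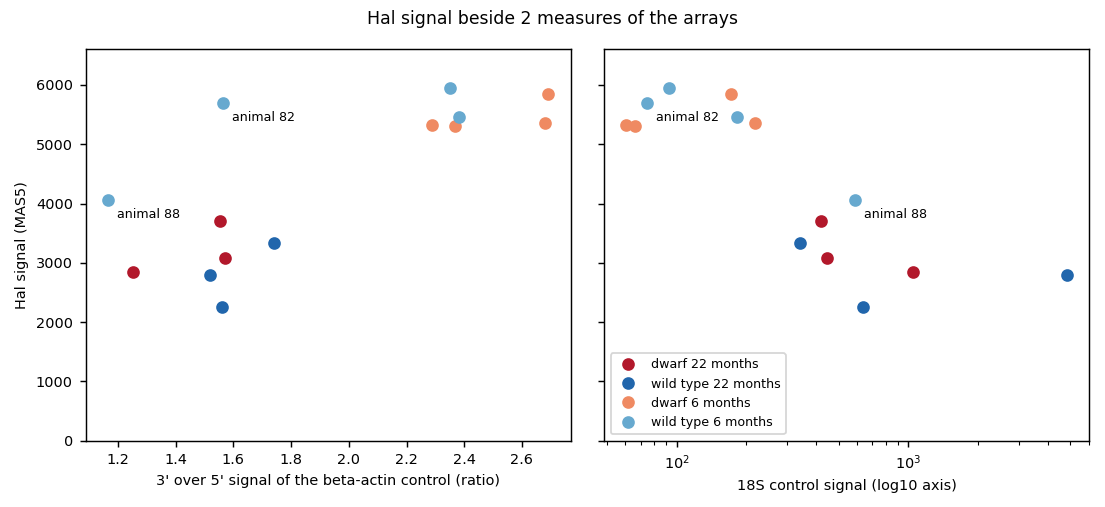
Hal MAS5 signal of each mouse against the 3' to 5' ratio of the beta-actin control on its array (left, linear axis) and the 18S control signal (right, log axis), coloured by group. The 6 mice of 22 months lie between 2252 and 3699, below all 8 mice of 6 months, and animal 88 of 6 months lies at the lowest ratio, 1.164, with a Hal signal of 4063.

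Hpd, 4-hydroxyphenylpyruvate dioxygenase, carries out the step of tyrosine breakdown that follows Tat. It had 733, 475 and 177 in dwarf mice of 22 months, 477, 209 and 368 in wild type mice of 22 months, 491, 339, 522 and 584 in 6-month dwarf mice and 378, 198, 558 and 715 in wild type mice of 6 months. All groups overlapped, standard errors were 0.43 to 0.49 for the comparisons within an age or genotype, and no comparison came near the threshold (smallest limma adjusted p = 0.725).

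**Figure D3:**
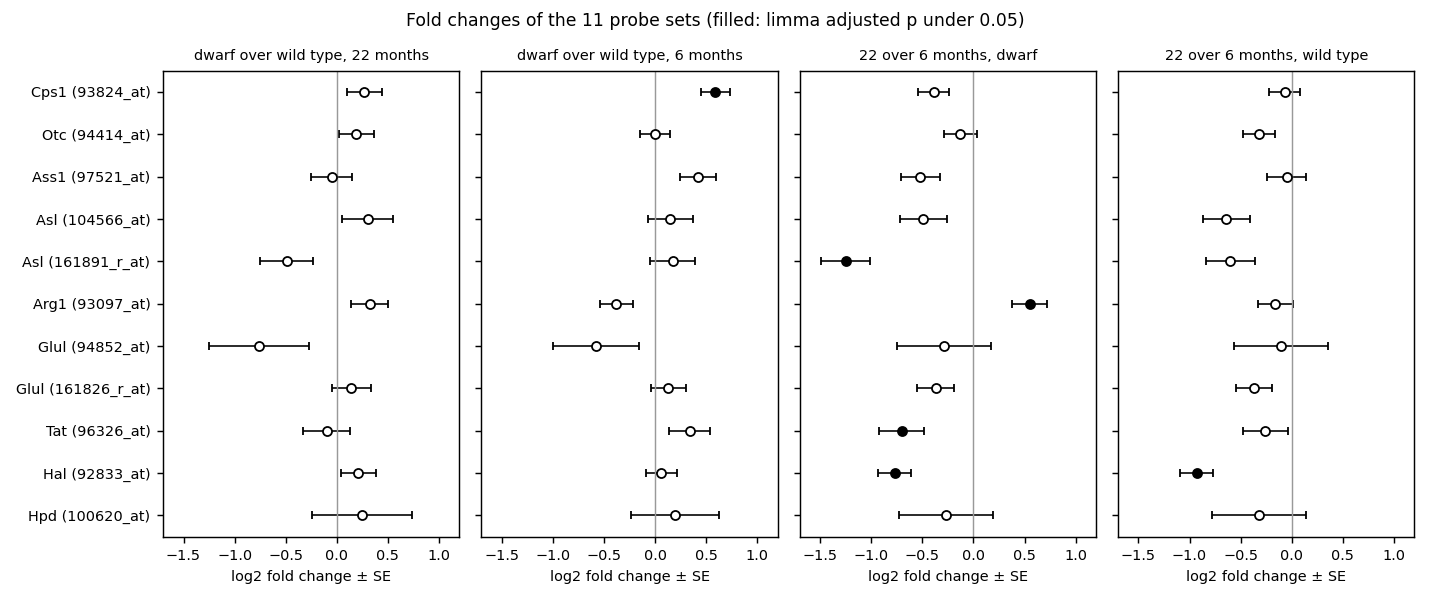
Log2 difference of each probe set in the 4 comparisons of genotype and age, with bars of 1 SE, where filled points passed at a limma adjusted p under 0.05. Age differences of the deposited values are negative for every probe set but that of Arg1 in dwarf mice (Otc in dwarfs turns positive with median scaling and Cps1 in wild type mice with quantile normalization), and those of genotype lie on both sides of 0.

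Beyond the members, 75 other genes of ammonia handling and amino acid breakdown were listed, of which 45 were on the array and 43 were tested. At 6 months 1 of 43 was higher in dwarfs and 6 were lower, when 6.3% of all genes passed as higher and 7.09% as lower. With an unadjusted limma p under 0.05 there were 7 higher and 8 lower, against 16.19% and 13.05% of all genes. At 22 months 2 were higher and none lower in the limma fit, against 1.39% and 1.48% of all genes, and at an unadjusted p under 0.05 the counts were 12 and 0 of 43, against 6.1% and 6.82% of all genes. With age in dwarf mice 8 were higher and 1 lower (7.93% and 8.46% of all genes), and in wild type mice none was higher and 1 was lower in the limma fit (1.41% and 1.08%), with 2 and 7 of 43 at an unadjusted p under 0.05, against 8.83% and 8.7% of all genes. For age in dwarf mice the unadjusted counts were 14 higher and 3 lower, against 14.53% and 17.8% of all genes. In the interaction 5 passed as more positive in dwarfs (1.75% of all genes) and 0 as more negative (0.585%). The unadjusted counts there were 12 and 0, against 6.87% and 7.51% of all genes. Averaged over ages 5 of 43 were higher in dwarfs and none lower, against 4.66% and 5.7% of all genes. The unadjusted counts were 9 and 5, against 12.59% and 11.6%. The 5 that passed were Aass, described below, Slc1a2 (0.98 ± 0.26, limma adjusted p = 0.022), Oat (0.77 ± 0.20, 0.0218), Slc38a4 (0.31 ± 0.09, 0.0409) and Slc7a2 (0.90 ± 0.27, 0.0439). With 1 array left out the calls of Slc1a2, Oat, Slc38a4 and Slc7a2 held in 12, 10, 4 and 4 of 14 fits. The median log2 difference of the 43 genes was -0.09 at 6 months and 0.11 at 22 months between genotypes, and 0.21 in dwarf and -0.03 in wild type mice between ages.

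Slc25a15, the mitochondrial carrier that exchanges ornithine for citrulline in the urea cycle, fell in young dwarfs. It averaged 4298 ± 829.3 in dwarf mice and 7695 ± 2473 in wild type mice of 6 months (SD, n = 4 each), a log2 difference of -0.81 ± 0.19 (limma adjusted p = 0.0089). In dwarf mice of 22 months it averaged 7703 ± 227, against the same 4298 at 6 months, 0.86 ± 0.20 higher (adjusted p = 0.0108). That age call of Slc25a15 was lost with the 18S covariate (0.53, adjusted p = 0.20) and the 3' to 5' covariate (0.46, 0.359).

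Slc7a2, a carrier of arginine and other cationic amino acids, went the other way. It averaged 2653 ± 1583 in dwarf and 935 ± 286 in wild type mice of 6 months, 1.33 ± 0.35 higher on the log2 scale (limma adjusted p = 0.0201). The call was lost without animals 82, 87 or 89 (adjusted p of 0.0627, 0.0671 and 0.0604), and without animal 88 the difference was 1.51 (0.0163). In dwarf mice it averaged 711 ± 53.6 at 22 months, against 2653 at 6 months, which was -1.68 ± 0.38 (adjusted p = 0.00953). This call was lost with the 18S covariate (-1.90, adjusted p = 0.0598) and the 3' to 5' covariate (-2.16, 0.0811).

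In the aromatic group, Ddc, the decarboxylase of DOPA and related amino acids, had the widest range. It averaged 389 ± 240 in dwarf mice and 1306 ± 265 in wild type mice of 6 months, a log2 difference of -1.95 ± 0.38 (limma adjusted p = 0.00327) that passed with any 1 array left out. Without animal 88 the differences at 6 months were -2.02 for Ddc (adjusted p = 0.00656), -0.61 for Slc25a15 (0.0174) and -0.56 for Shmt1 (0.0213). In dwarfs Ddc rose with age, with 1350 ± 181 at 22 months (2.01 ± 0.41, adjusted p = 0.00638). Qdpr, which regenerates the cofactor of phenylalanine hydroxylation, was lower in dwarf than in wild type mice of 6 months (-0.44 ± 0.12, adjusted p = 0.0204). Without animal 88 that difference was -0.38 and no longer passed (0.0541). In dwarfs Qdpr averaged 13708 ± 437 at 22 months against 9534 ± 1106 at 6 months (0.53 ± 0.13, adjusted p = 0.0125). With the 18S and the 3' to 5' covariate these age calls were lost, at adjusted p of 0.0894 and 0.101 for Ddc and of 0.166 and 0.193 for Qdpr.

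Among glycine and serine enzymes, Shmt1, which interconverts serine and glycine, averaged 1291 ± 162 in dwarf and 2004 ± 268 in wild type mice of 6 months (-0.63 ± 0.14, limma adjusted p = 0.00755), and 2416 ± 134 in dwarf mice of 22 months (0.91 ± 0.15 above 6 months, adjusted p = 0.00198). Gldc, the decarboxylase of the glycine cleavage system, averaged 2701 ± 118 in dwarf mice and 1214 ± 519 in wild type mice of 22 months (1.24 ± 0.29, adjusted p = 0.0278). That call was lost without any 1 of animals 1, 24, 3, 4 or 8, with adjusted p of 0.078 to 0.151. Over the dwarf mean of 860 ± 220 at 6 months, Gldc at 22 months was 1.69 ± 0.27 higher (adjusted p = 0.00164). With the 3' to 5' covariate the age calls in dwarfs were lost for Gldc (1.34, adjusted p = 0.113) and Shmt1 (0.76, 0.109).

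Lysine and branched-chain enzymes added smaller differences. Aass, the first enzyme of lysine breakdown, was 0.51 ± 0.12 higher in dwarfs averaged over ages (limma adjusted p = 0.0105), in each of 14 fits with 1 array left out. Aldh7a1, a later enzyme of that route, averaged 12646 ± 1602 in dwarf mice of 22 months against 7900.4 ± 726 in those of 6 months (0.68 ± 0.14, adjusted p = 0.00562). Its probe set may also detect related transcripts. At 6 months Aldh7a1 was lower in dwarf than in wild type mice (-0.50 ± 0.13, limma adjusted p = 0.0156), and at -0.43 without animal 88 (0.0425). Bckdhb, a subunit of the branched-chain keto acid dehydrogenase, averaged 3055 ± 131 in dwarf mice of 22 months and 1969 ± 263 in those of 6 months (0.64 ± 0.14, adjusted p = 0.00728). With the 18S and the 3' to 5' covariate these age calls were lost, at 0.59 and 0.44 for Aldh7a1 (adjusted p of 0.0921 and 0.22) and at 0.54 and 0.49 for Bckdhb (0.114 and 0.201). Hibadh of the branched-chain group was lower in dwarfs at 6 months (-0.42 ± 0.12, limma adjusted p = 0.0369), and at -0.48 without animal 88 (0.0261). Mccc1 of that group rose with age in dwarfs (0.55 ± 0.18, 0.0493). Gcdh was higher in dwarfs at 22 months (0.79 ± 0.19, 0.028). It fell with age in wild type mice (-0.76 ± 0.18, 0.0336), and was at -0.65 without animal 88 (0.0391). With 1 array left out these calls held in 7, 4, 10 and 10 of 14 fits, in that order.

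**Figure D4:**
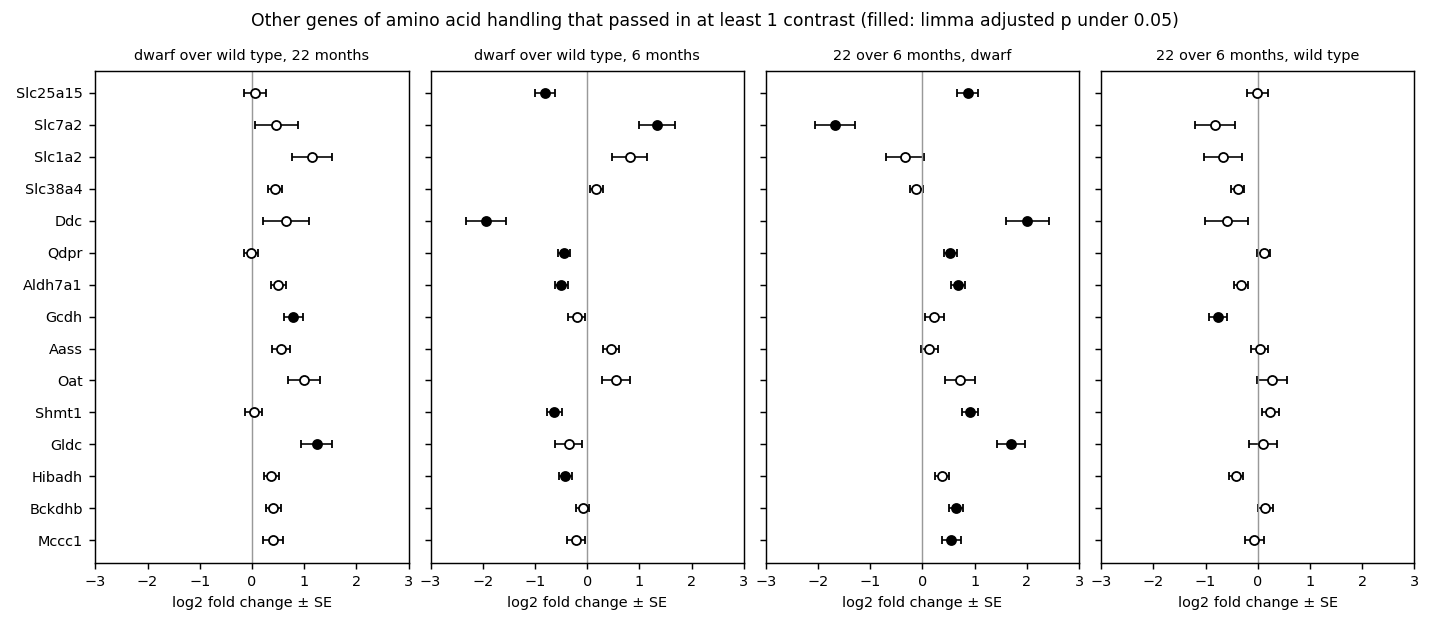
Log2 differences of the genes of the wider lists that passed in at least 1 of the 6 contrasts, in the 4 comparisons of genotype and age, with bars of 1 SE and filled points for limma adjusted p under 0.05. Ddc, Slc25a15 and Shmt1 are below 0 between dwarf and wild type mice of 6 months and above 0 with age in dwarfs, comparisons that share the dwarf mice of 6 months.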

How the data were processed

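Liver RNA of 14 mice was measured on Affymetrix arrays. The deposited values are signal intensities on a linear scale, made by the authors with MAS5 per the submitters' processing notes; their version, scaling target and detection calls are not given in the sources used here. The number of arrays limits the precision, and no depth applies. Of 12488 probe sets, 10855 had 1 symbol in the platform annotation, 396 several and 1237 were not listed; 10839 gene identifiers were found in the RefSeq table. Values under the pooled 25th percentile (54.9) were set to it, probe sets above the pooled median (184.8) on at least 3 arrays were kept, and 66 control probe sets were left out, leaving 7227 (5473 genes, each by its brightest probe set on average). Log2 values were fitted with limma 3.58.1 in R 4.3.3 (lmFit, eBayes with trend; 1 mean per group, 6 contrasts), and p-values were adjusted within each contrast. The steps were tested on simulated data. Promoter letters were searched with Python 3.11.15.

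The members, gene lists and marker lists were chosen with earlier results of these data known. Named genes were all members, up to 4 passing genes with the smallest p per wider list and comparison, and the 2 genes most like any probe set whose group means span a log2 range of 1. Alternatives covered scaling, floor, filter, variance model, weights, the arrays fitted, control covariates and the probe set of a gene.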

Additional observations from a re-analysis of the deposited data

Results flagged for a closer look

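In groups of 4 mice, 5 of 56 sets of values held 1 mouse far from the others by Dixon's criterion, which chance meets in about 1 of 20. Among the members, Ass1 was at 2377.3 in dwarf animal 87 of 6 months, with the other 3 dwarfs of that age at 1567 to 1695. Hal was at 5846.2 in dwarf animal 83 of 6 months, with the others at 5299.7 to 5359.7. Tat was at 13704.4 in wild type animal 88 of 6 months, with the others at 9047 to 9507. In the wider lists, Gldc was at 530.2 in dwarf animal 89 of 6 months, below the other dwarfs of that age, and Ddc was at 1698 in wild type animal 82 of 6 months, above the other wild type mice of that age.

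In the wider lists, 5 genes changed with age differently in the genotypes by the interaction term of the limma fit, each more positive in dwarf than in wild type mice. The log2 interaction was 2.60 for Ddc (adjusted p = 0.032), 1.59 for Gldc (0.0434), 1.00 for Aldh7a1 (0.0172), 0.99 for Gcdh (0.0499), an enzyme of lysine and tryptophan breakdown, and 0.78 for Hibadh (0.0434), an enzyme of valine breakdown. Leaving out 1 array ended the call of Ddc in 9 of 14 fits, of Gldc in 10, of Gcdh in 12, of Hibadh in 12 and of Aldh7a1 in 2. For Aldh7a1 those were wild type animal 24 (0.96, adjusted p = 0.0535) and dwarf animal 3 (0.90, adjusted p = 0.0596).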

How the results depend on the processing

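Across 66 results for the members (11 probe sets in 6 contrasts) 1694 alternatives were computed, of which 1656 kept their direction where called and their side of the threshold, 32 lost a call, 6 gained one and 0 reversed. The cause of each change was not tested. Members passing numbered 1 at 6 months (0 with the 3' to 5' covariate, 1 to 2 with 1 array left out), 0 at 22 months under every alternative run, 1 averaged over ages (0 with median scaling or no filter, 0 to 1 with 1 array left out), 3 with age in dwarfs (1 with no filter, 1 without the variance trend, 0 with either control covariate, 1 to 3 with 1 array left out), 1 with age in wild type mice (0 with the 18S covariate, 1 with any array left out) and 0 for the interaction. With median scaling the 1 member passing at 6 months was Arg1, lower in dwarfs, in place of Cps1. Ass1 passed with age in dwarfs under array weights (-0.55, limma adjusted p = 0.0428), and the regular Glul probe set at 6 months with the 3' to 5' covariate (-1.23, 0.0229).

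Of the wider lists, 7 genes passed at 6 months (11 after quantile normalization, 4 with the compared groups alone, 3 to 10 with 1 array left out) and 2 at 22 months (1 with median scaling, the compared groups alone or the most variable probe set, 0 with no filter or no trend, 6 with array weights, 0 to 2 with 1 array left out). Averaged over ages 5 passed (2 with median scaling, 1 with no filter, 3 with no trend or the 18S covariate, 1 to 6 with 1 array left out). With age in dwarfs 9 passed (17 with array weights, 2 with the 18S and 0 with the 3' to 5' covariate, 8 to 13 with 1 array left out), and with age in wild type mice 1 (0 with median scaling, no filter, no trend, the compared groups alone, the 18S covariate or the most variable probe set, and 0 to 1 with 1 array left out). The interaction gave 5 (1 with no filter, 0 with no trend or the 3' to 5' covariate, 3 with the most variable probe set, 0 to 4 with 1 array left out). No paired analysis was run, because the labels do not say whether mice were paired.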

Other observations

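Among 12 listed regulators of these genes and their hormonal readouts, 6 of the 8 on the array were tested. Gcgr, the glucagon receptor, averaged 1317 ± 300 in dwarf and 1974 ± 345 in wild type mice of 6 months (SD, n = 4 each; log2 difference -0.60 ± 0.18, limma adjusted p = 0.0431), a call that 9 of 14 fits with 1 array left out ended (animals 1, 2, 3, 24, 82, 85, 86, 87 and 88), at adjusted p of 0.0531 to 0.125, with -0.55 and 0.0894 without animal 88. Pck1, the first committed enzyme of glucose production and a glucagon-responsive gene, fell with age in dwarfs, at 1405 ± 306 (n = 3) at 22 months against 4122 ± 1344 (n = 4) at 6 months (-1.52 ± 0.23, adjusted p = 0.00135). It also fell in wild type mice, at 1448 ± 339 (n = 3) against 2831 ± 150.5 (n = 4; -0.99 ± 0.23, adjusted p = 0.0343), a call lost without animals 1, 2, 82, 84 or 86 (adjusted p of 0.0615 to 0.132) and with the 18S covariate (0.321).

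Markers of the zones of the liver lobule were counted in the same fit. Of 6 tested pericentral genes, Cyp2e1 (0.61 ± 0.14, limma adjusted p = 0.00957) and Cyp1a2 (0.92 ± 0.27, 0.0372), both drug-metabolizing enzymes, were higher in dwarfs at 6 months, and none was lower, against 6.3% of all genes higher and 7.09% lower. Without animal 88 Cyp2e1 was at 0.64 (adjusted p = 0.015) and Cyp1a2 at 0.92, which no longer passed (0.0664). Of 6 tested periportal genes, Cyp2f2 (-2.70 ± 0.23, adjusted p = 1.25e-06) and Ctsc (-2.26 ± 0.29, 9.34e-05) were lower at 6 months and none was higher, at -2.49 and -2.38 without animal 88 (2.92e-06 and 0.000193). The periportal median was -0.02, and Pck1 (0.48), Pigr (0.36) and Cdh1 (0.34) were positive without passing, with 2 higher and 3 lower of the 6 at an unadjusted p under 0.05 against 16.19% and 13.05% of all genes. At 22 months no pericentral gene passed. At an unadjusted p under 0.05 there were 3 higher and 0 lower, against 6.1% and 6.82% of all genes. Cyp2f2 (-2.08 ± 0.27, limma adjusted p = 0.000199) and Ctsc (-2.14 ± 0.34, 0.00123) were again lower, against 1.48% of all genes. Averaged over ages 3 pericentral genes passed as higher, Cyp1a2, Oat and Slc1a2, against 4.66% of all genes. With age in dwarfs Cyp2e1 fell (-0.62 ± 0.15, adjusted p = 0.014). Neither zone list is independent of the genes described here, since Arg1 is in the periportal one, and Oat and Slc1a2 of the wider lists are in the pericentral one. Of 4 tested Kupffer cell genes, 0 had a positive difference between dwarf and wild type at 22 months, with a median of -0.78. Clec4f alone passed there (-1.16 ± 0.26, limma adjusted p = 0.0196), against 1.48% of all genes lower. At an unadjusted limma p under 0.05 it was 3 of 4 lower, against 6.82% of all genes. Averaged over ages Clec4f (-0.67 ± 0.17, adjusted p = 0.0185) and Cd5l (-0.56 ± 0.16, 0.0385) passed as lower, against 5.7% of all genes. Of 4 kidney and gut markers on the array, only Fabp2 was tested. It averaged 132 ± 41.7 in dwarf and 1937 ± 184 in wild type mice of 6 months, a log2 difference of -3.93 ± 0.31 (limma adjusted p = 4.58e-07). Without animal 88 the difference was -3.98 (3.33e-06). Fabp2 rose with age in dwarfs (2.16 ± 0.33, adjusted p = 0.00137), and its interaction of genotype and age was 3.11 ± 0.47 (0.00379). The other markers averaged higher in dwarfs at 6 months: Slc12a1 at 112.7 against 77.2, Vil1 at 26.5 against 9.1 and Umod at 20.4 against 15.0. Vil1 and Umod were at or below the floor on 12 and 14 arrays.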
